A study of Mus musculus with 16 samples.

Results

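HIF-1α overexpression was set directly against Hif1a knockdown in cultures of mouse dorsal root ganglia, where the cell bodies of sensory neurons lie. The comparison holds 10 of the 16 arrays of the series: the 4 titled as overexpression and the 6 titled as knockdown. The ganglia were of CD-1 embryos, embryonic day 13, and were grown as spots from which axons extend. On day 4 in culture they received lentivirus, either the FUGW vector, which expresses its insert constitutively, with human HIF-1α cDNA (overexpression), or MISSION short hairpin RNA (shRNA) against Hif1a (knockdown). On day 7 axons were severed by blade in some cultures, whose RNA was taken 3 h or 12 h later, and other cultures stayed uninjured. Overexpression had 1 uninjured array, 2 arrays at 3 h and 1 at 12 h. Knockdown had 2 arrays at each time. The other 6 arrays, 2 at each time, are of cultures given a control shRNA. They shared the estimate of spread and are given as levels only, because the difference was taken between overexpression and knockdown within each time and then averaged over the 3 times.

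Several limits of the groups bear on all that follows. Both sides of the comparison carry a virus, and no array of an empty FUGW vector was used here, so vector and HIF-1α cannot be told apart. Construct cannot be told apart from any difference between culture or virus batches either. The labels do not say whether replicates differ in culture or animal, and p-values therefore measure the spread between these samples, which may be technical. Where a group had 1 array, the fit took its spread from the other groups. As RNA came from whole cultures, fewer cells of a type and less RNA per cell cannot be told apart.

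HIF-1α is a transcription factor subunit whose amount follows oxygen. When oxygen is plentiful, prolyl hydroxylases (the Egln enzymes) mark HIF-1α, and the VHL protein then sends it for destruction. When oxygen is low it persists, pairs with ARNT and binds short DNA elements with the core ACGTG or GCGTG near genes of glucose uptake, glycolysis, pH control, iron handling and vessel growth. Some of these genes, among them Egln3, feed back on HIF-1α itself. In peripheral neurons HIF-1α has been studied for its part in the response of axons to injury.

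The deposited values are linear intensities on Illumina Mouse Ref-8 v2.0 bead arrays, and an intensity above 16 was taken as above background. On every array between 47.8% and 47.9% of the 25697 probes passed it. Differences are on the log2 scale after a background model that adds an offset of 50, which understates the fold of dim genes. A gene with several probes stands by its brightest one. A gene below 16 on every array of one group has only a bound, taken against 16 and written "at least". Across the genes tested, on the log2 scale, overexpression arrays correlated with knockdown arrays at r = 0.9177 to 0.9296. Arrays of the same construct correlated at r = 0.992 or more, whatever the time. All 9 sensory neuron markers that were measured, such as the transcription factors Isl1 and Pou4f1, were above 16 on every array. Their summed intensity was 39560 to 45437 in overexpression, 29429 to 33620 in knockdown and 44687 to 51196 in control. These sums follow bright genes and do not count neurons. Calca alone had means of 13320 in overexpression, 3555 in knockdown and 15420 in control. Isl1 and Avil were not lower in knockdown than in overexpression, with means of 6090 against 5675 and 2583 against 1448. Markers of other cells were in part at background on all 16 arrays: 4 of 11 for fibroblasts (such as Col1a1 and Col3a1) and 3 of 10 for endothelium (such as Cdh5). The same held for 4 of 11 macrophage markers (such as Ptprc and Itgam) and 5 of 12 Schwann cell and satellite glia markers. The rest were above 16 on at least 1 array, among them Vim, Egfl7, Aif1 and Pmp22, so other cells are not excluded.

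The targeted gene was not separated by its own probe. Hif1a read -5.2 in the uninjured overexpression culture, 2.64 and 0.229 at 3 h and 5.22 at 12 h. In knockdown it read from -7.15 to 1.4, with a median of -2.15. All 10 arrays were therefore below the background limit, while the 6 control arrays lay between 21.3 and 42.7. The log2 difference was 0.07 (SE 0.079, limma adjusted p = 0.472). The probe is for the mouse gene, and whether it reads the human cDNA is not stated in the sources used here, so it cannot check the overexpression label.

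Other parts of the oxygen-sensing system did differ. Of 10 listed members 8 passed the filter on dim probes, and 5 of these were higher in overexpression and 1 was lower, against 28.8% of all 11151 genes called higher and 34.0% called lower (limma, Benjamini-Hochberg adjusted p under 0.05). Egln3, the prolyl hydroxylase that HIF-1α itself induces, read 1640.5 uninjured, 1451 and 1979 at 3 h and 1312 at 12 h in overexpression, and 299 to 463 in knockdown (median 373). The groups did not overlap, and the difference was 1.87 (SE 0.11, limma adjusted p = 2.45e-12). Control arrays fell between them, at 809 to 1074. Egln1, the main oxygen sensor of the family, was higher by 0.80 (SE 0.093), with overexpression at 94.2 to 141 and knockdown at 20.2 to 45.3. Vhl was higher by 0.92 (SE 0.11) and Egln2 by 0.49 (SE 0.099), again with no overlap. ARNT is the partner that HIF-1α needs on DNA. Its gene Arnt read 31.0 to 48.2 in overexpression and was below 16 on all 6 knockdown arrays, so it was at least 2.48-fold higher. Arnt2, another partner, was above 16 on 1 of the 10 arrays, in knockdown, and its difference of -0.26 is that of a gene near background, which was -0.03 and not called with values floored at 16. Hif3a, a related subunit, overlapped between the groups (-0.01, SE 0.096, limma adjusted p = 0.924).

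Over all genes the contrast was broad. A total of 3211 genes were higher in overexpression and 3786 were lower, and 742 (6.65%) and 769 (6.90%) of those tested were called and differed at least 2-fold. The median difference of all genes was -0.0185. In 5363 genes (48.1%) the 4 overexpression arrays did not overlap the 6 knockdown arrays. With 62.7% of genes called in one direction or the other, a single call says little. A gene entered the test if 2 of the 16 arrays were above 16, so a gene can have entered through the group where it is high, and the counts over lists below are descriptions. Each such count stands beside 28.8% called higher and 34.0% called lower over all genes.

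Lists drawn up around HIF targets leaned to overexpression. The 7 lists were drawn up with earlier results of these data known, so the lean is a description. They also hold pathway and family members that are not all known targets, such as the carbonic anhydrases as a family. Of their 111 genes, 99 were found on the array and 79 were tested. Of these 79, 52 (65.8%) were higher and 15 (19.0%) lower. Their median difference was 0.73, beside -0.0185 over all genes. The plot of intensities by array shows 22 genes of the system and of these lists.

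**Figure D1:**
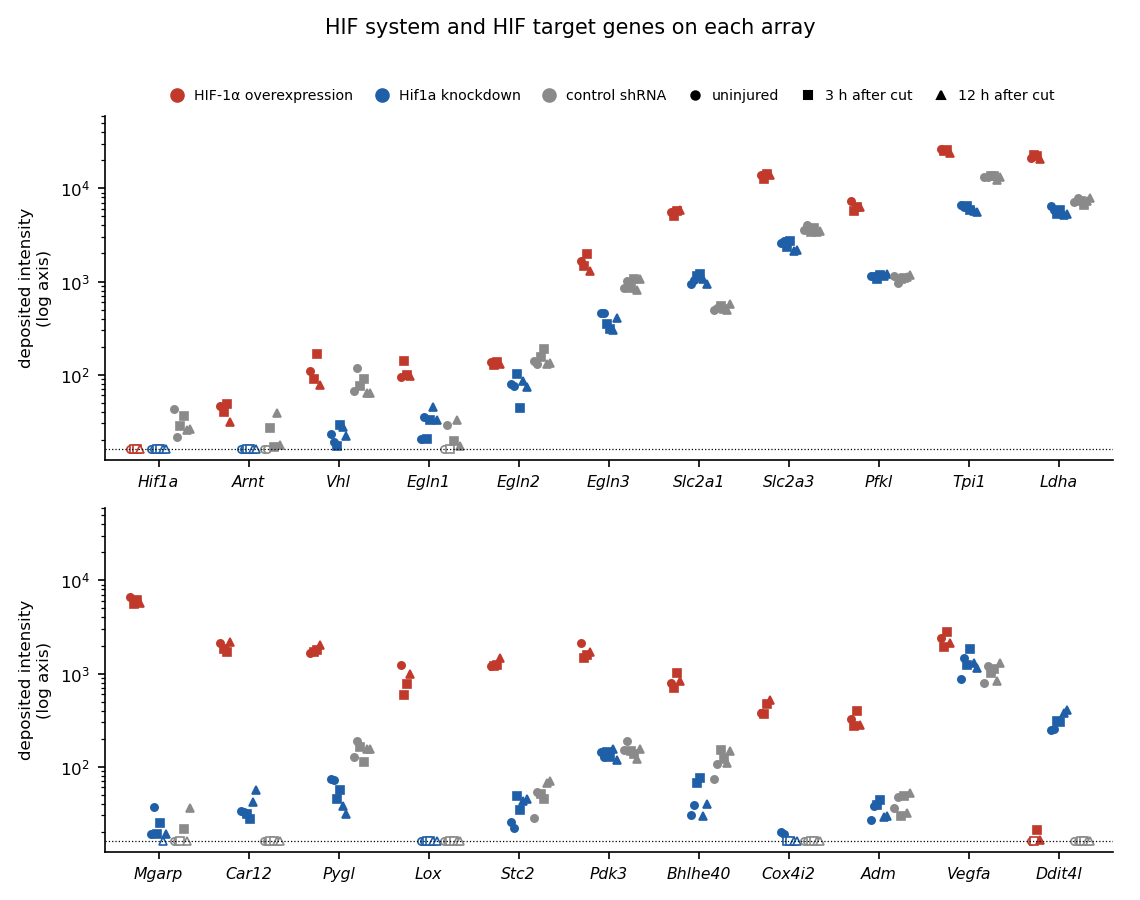
Deposited intensity on a log axis for 11 genes in each panel, 1 point per array. Red points are overexpression, blue points knockdown and grey points control shRNA, and circles, squares and triangles are uninjured, 3 h and 12 h. Open points on the dotted line are arrays at or below 16. Egln3 in overexpression lies at 1312 to 1979 and in knockdown at 299 to 463, Hif1a is on the dotted line in both, and Ddit4l is high in knockdown alone.

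Members of these lists with the largest rises are shown with their promoters, because HIF binds its core element near its targets. Promoters are from RefSeq, build GRCm38.p6, run from 250 bases before to 50 bases after the gene's start, and are written 5′ to 3′ along the gene. Capitals mark every ACGTG or GCGTG read on either strand, so that CACGT and CACGC in capitals are these cores on the other strand. The promoter of Mgarp lies at chr3:51396498-51396797 (minus strand), that of Car12 at chr9:66713436-66713735 (plus strand), that of Pygl at chr12:70227634-70227933 (minus strand), that of Stc2 at chr11:31370012-31370311 (minus strand), that of Pdk3 at chrX:93832101-93832400 (minus strand) and that of Ankrd37 at chr8:45999801-46000100 (minus strand).
Mgarp: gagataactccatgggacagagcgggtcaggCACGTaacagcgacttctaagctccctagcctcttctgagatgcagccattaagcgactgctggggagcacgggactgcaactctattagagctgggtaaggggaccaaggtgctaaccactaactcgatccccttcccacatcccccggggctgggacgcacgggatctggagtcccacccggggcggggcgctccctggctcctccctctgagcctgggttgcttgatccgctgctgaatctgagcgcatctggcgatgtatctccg
Car12: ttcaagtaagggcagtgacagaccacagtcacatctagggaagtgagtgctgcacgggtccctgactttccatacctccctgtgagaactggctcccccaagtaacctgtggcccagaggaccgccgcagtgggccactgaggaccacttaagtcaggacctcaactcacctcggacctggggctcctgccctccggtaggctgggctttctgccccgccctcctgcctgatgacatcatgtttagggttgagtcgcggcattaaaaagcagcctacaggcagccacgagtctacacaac
Pygl: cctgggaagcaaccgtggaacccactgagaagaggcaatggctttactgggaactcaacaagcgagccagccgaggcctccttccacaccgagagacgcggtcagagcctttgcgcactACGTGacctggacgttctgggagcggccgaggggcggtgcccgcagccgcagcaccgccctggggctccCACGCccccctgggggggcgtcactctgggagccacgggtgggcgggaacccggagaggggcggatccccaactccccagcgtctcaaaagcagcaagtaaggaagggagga
Stc2: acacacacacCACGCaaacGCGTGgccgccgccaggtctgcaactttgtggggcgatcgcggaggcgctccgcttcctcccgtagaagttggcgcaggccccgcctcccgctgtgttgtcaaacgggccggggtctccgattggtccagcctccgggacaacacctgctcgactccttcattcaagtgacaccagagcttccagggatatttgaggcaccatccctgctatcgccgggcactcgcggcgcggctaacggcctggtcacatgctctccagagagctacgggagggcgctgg
Pdk3: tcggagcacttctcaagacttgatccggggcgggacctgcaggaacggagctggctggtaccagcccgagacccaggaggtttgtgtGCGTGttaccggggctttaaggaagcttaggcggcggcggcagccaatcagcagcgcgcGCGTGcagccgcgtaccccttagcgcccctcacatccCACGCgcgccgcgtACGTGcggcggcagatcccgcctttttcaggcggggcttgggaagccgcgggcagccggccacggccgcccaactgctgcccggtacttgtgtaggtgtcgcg
Ankrd37: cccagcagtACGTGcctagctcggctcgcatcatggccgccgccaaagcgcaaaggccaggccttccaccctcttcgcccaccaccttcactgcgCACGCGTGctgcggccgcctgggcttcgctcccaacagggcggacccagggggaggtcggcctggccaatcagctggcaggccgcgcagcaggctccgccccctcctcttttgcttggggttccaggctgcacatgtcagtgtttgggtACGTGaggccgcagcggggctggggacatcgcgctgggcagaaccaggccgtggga
The Ankrd37 promoter holds 4 cores, 1 of them 6 bases upstream of the start, and 2 of the 4 overlap in the run CACGCGTG. The Pdk3 promoter also holds 4, the nearest beginning 53 bases upstream. Pygl and Stc2 hold 2 each and Mgarp 1, and the letters do not occur in this window of Car12. At least 1 core stood in 73.8% of the 61 promoters found for tested HIF targets and in 73.2% of the 41 found for those called higher, beside 61.2% of the 8517 found for all genes tested and 43.8% of all 32851 promoters in the table. ACGTG, with or without GCGTG, stood in 46.3% of the promoters of list members called higher. It stood in 45.9% of those of all tested list members and in 24.8% of those of all genes tested. These are counts of letters and not of sites that were shown to be bound.

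Mgarp, a mitochondrial protein of neurons that hypoxia induces, had the largest difference of any named gene. It read 6585 uninjured, 5549 and 6229 at 3 h and 5700.4 at 12 h in overexpression. Knockdown arrays read 9.35 to 36.7 (median 19.0), 5 of 6 above background, and control arrays 4.29 to 36.3. The difference was 6.12 (SE 0.091, limma adjusted p = 2.64e-21), or 69.8-fold on the offset scale. Among the other genes listed for mitochondria, mitophagy and the brake on mTOR, Cox4i2, the low-oxygen form of a cytochrome oxidase subunit, was higher by 2.70 (SE 0.078), with 2 of 6 knockdown arrays above background. Ankrd37, an ankyrin repeat protein and HIF target, was higher by 2.48 (SE 0.10), with 1 of 6 knockdown arrays above it. The mitophagy receptor Bnip3l rose by 1.10 (SE 0.094), from 908 to 1276 in knockdown to 2044 to 2852 in overexpression.

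The other 3 called members of that list went the other way. Ddit4, the stress-induced inhibitor of mTOR signalling, read 2398 uninjured, 2219 and 2562 at 3 h and 2832 at 12 h in overexpression, below every knockdown array (3414 to 4424, median 3604). Its difference was -0.57 (SE 0.078), while control arrays were lower than both, at 859 to 1484. Its relative Ddit4l was 249 to 402 in knockdown and above 16 on 2 of 4 overexpression arrays and on none of the 6 control arrays (-2.22, SE 0.072). Fundc1, another mitophagy receptor, was lower by 0.56 on the log2 scale. In all, 4 of 10 tested members (14 listed) were higher, 3 were lower and 3 did not pass.

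Glucose transport and glycolysis were mostly higher. Of 18 members tested, of 20 listed, 14 were higher, 3 were lower and 1 did not pass, with 11 higher and 0 lower by at least 2-fold (limma), with a median difference of 1.12. The glucose transporter Slc2a1 read 5592 uninjured, 4996 and 5723 at 3 h and 5884 at 12 h in overexpression, and 941 to 1218 in knockdown (median 1047). The difference of 2.34 (SE 0.080, limma adjusted p = 5.59e-16) is 5.06-fold, and control arrays, at 492 to 572, were below both. The neuronal transporter Slc2a3 read 13823, 12739, 14149.8 and 13993 in the same order, against 2145 to 2753 with a median of 2459 (2.46, SE 0.080). At single times the difference of Slc2a1 was 2.42 uninjured, 2.11 at 3 h and 2.48 at 12 h. Pfkl, a subunit of the committed enzyme phosphofructokinase, rose by 2.43 (SE 0.078), from 1063 to 1202 to 5738 to 7256, while its dimmer probe differed by 0.64. Further along the pathway Tpi1 was higher by 2.05, Aldoc by 1.73, Eno1 by 1.72, Pgam1 by 1.67, Aldoa by 1.32, Gapdh by 1.13, Pkm by 1.11 and Eno2 by 1.10. The SEs of this list ran from 0.07 to 0.16.

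The other 4 members were lower or did not pass. The muscle-type phosphofructokinase subunit Pfkm read 2342 to 2723 in overexpression and 3487 to 4495 in knockdown, a difference of -0.58 (SE 0.081). Pfkfb4, a bifunctional enzyme that sets the activator of phosphofructokinase, was lower by 0.88 on the log2 scale, with 281 to 351 against 548 to 785 and no overlap. Pfkfb2 was -0.52 (SE 0.092), with groups that overlapped. Pgk1, one of the best known HIF targets, was near background on its probe in both groups (0.11, SE 0.085, limma adjusted p = 0.279).

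Genes that route pyruvate and store glycogen showed the same direction. Of 11 tested, of 17 listed, 9 were higher and 1 was lower, with a median of 1.86. The pyruvate dehydrogenase kinases inhibit pyruvate dehydrogenase, the enzyme that commits pyruvate to oxidation inside mitochondria. Pdk3 read 2130.4 uninjured, 1481 and 1599.9 at 3 h and 1719 at 12 h, against 118 to 155 in knockdown with a median of 136 (3.19, SE 0.086, limma adjusted p = 1.16e-17). Control arrays, at 119.7 to 188, overlapped those of knockdown. Pdk1 was higher by 2.32 (SE 0.083), while Pdk2 did not pass (-0.01). Ldha, the lactate dehydrogenase subunit that favours lactate, rose by 1.91 (SE 0.078), from 5146 to 6535 to 20506 to 22677. The lactate exporter Slc16a3 was 133 to 173 in overexpression and below 16 on all 6 knockdown and all 6 control arrays, at least 9.83-fold higher. That rests on 1 of its 2 probes, as the other differed by 0.04 and took its place, ending the call, when any 1 overexpression array was left out (0.01 to 0.08). Pygl, which breaks glycogen down, read 1683 to 2017 against 30.8 to 74.3 (3.99, SE 0.091). Genes of glycogen synthesis were higher too: Ppp1r3c, which brings a phosphatase to glycogen, by 1.82, Pgm2 by 1.92, Ugp2 by 1.19 and the synthase Gys1 by 0.78. The exception was the mitochondrial pyruvate carrier subunit Mpc2, lower by 0.48 on the log2 scale.

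Carbonic anhydrases are enzymes that buffer acid, and Car12 and Car9, both of the cell surface, had the largest rises among those tested. Car12 read 2113 uninjured, 1834 and 1712 at 3 h and 2186 at 12 h, against 27.7 to 55.6 in knockdown (median 33.2). The difference was 4.33 (SE 0.077, limma adjusted p = 2.01e-20), and all 6 control arrays were below 16. Car9, the classical HIF-induced member, was 139.7 to 273 in overexpression and below 16 on all 6 knockdown arrays, at least 13.4-fold higher on the brightest of 3 probes, while the weakest difference among them was 0.34. Of 8 members tested, of 16 listed, 4 were higher, Car11 and the membrane-anchored Car15 by 0.62 and 0.45, and 1, Car7, was lower. Car2, Car5b and Car13 did not pass (-0.08, -0.13 and -0.17).

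Most genes that modify collagen were higher, whereas most of the collagen genes that passed were lower. Lox, which crosslinks collagen, read 1239.9 uninjured, 593 and 763 at 3 h and 987 at 12 h and was below 16 on all 6 knockdown and 6 control arrays, at least 58.6-fold higher. The prolyl hydroxylase subunit P4ha2 rose by 1.38 (SE 0.086) and the lysyl hydroxylase Plod2 by 0.88 (SE 0.081). For both, knockdown arrays were themselves above control: Plod2 was 188 to 279 in knockdown and 54.7 to 80.1 in control. Of 8 members tested, of 13 listed, 6 were higher and 2 lower, the latter being Plod3 (-0.30) and Loxl1 (-1.26, SE 0.077, above 16 on 1 of 4 overexpression arrays). Of 19 collagen genes tested, a family chosen after values were seen, 1 was higher and 10 were lower (median -0.353). Col4a1, a chain of basement membranes, was 631 to 836 in knockdown and above 16 on 1 of 4 overexpression arrays (-3.33, SE 0.084), and Col6a1 was lower by 2.06 on the log2 scale.

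Secreted factors split by gene. Of 11 tested, of 15 listed, 6 were higher and 3 were lower. Stc2, a secreted glycoprotein that acts on calcium and phosphate balance, read 1201 uninjured, 1212 and 1227 at 3 h and 1465 at 12 h, against 21.8 to 48.6 in knockdown with a median of 38.6 (3.73, SE 0.082, limma adjusted p = 4.71e-19). Adm, which encodes the vessel-widening peptide adrenomedullin, rose by 1.92 (SE 0.096). Vegfa, the vessel growth factor for which HIF is best known, differed less: 2380.3, 1912, 2774 and 2143 in overexpression against 884 to 1833 in knockdown (median 1265). Its difference was 0.79 (SE 0.15, limma adjusted p = 1.33e-04), and the lowest overexpression array was just above the highest knockdown array. Its dimmer probe differed by 1.59. Vegfb was higher by 0.97 (SE 0.085). Angpt2, a vessel-destabilising ligand, was 45.3 to 94.1 in knockdown and above 16 on 1 of 4 overexpression arrays (-0.80, SE 0.080).

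Of 13 tested transcription and chromatin regulators that HIF induces (16 listed), 9 were higher and 2 were lower (median 0.73). Bhlhe40, a repressor that also acts in the circadian clock, read 795 uninjured, 693 and 1018 at 3 h and 829.9 at 12 h, against 29.6 to 75.5 in knockdown with a median of 39.4 (2.99, SE 0.10). Ndrg1, a stress-response gene that is mutated in an inherited neuropathy, rose by 2.47 (SE 0.085), and the Notch effector Hey1 by 1.52 (SE 0.087). The histone demethylases differed among themselves: Kdm3a was higher by 0.78 and Kdm4b by 0.57, Kdm4c and Kdm5c did not pass (0.20 and 0.01), and Kdm6b was lower, at 174 to 259 against 355 to 606. Iron genes were mixed, with 5 of 12 (41.7%) higher and 3 (25%) lower, beside 28.8% and 34.0% of all genes. The iron sensor Ireb2 was higher by 1.47 (SE 0.078) and the transferrin receptor Tfrc by 0.93 (SE 0.079), while the exporter Slc40a1 was lower by 0.84 on the log2 scale. For Tfrc the overexpression arrays (2849.7 to 4041) overlapped control (3258 to 3883), and knockdown arrays were below both (1586 to 2194).

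**Figure D2:**
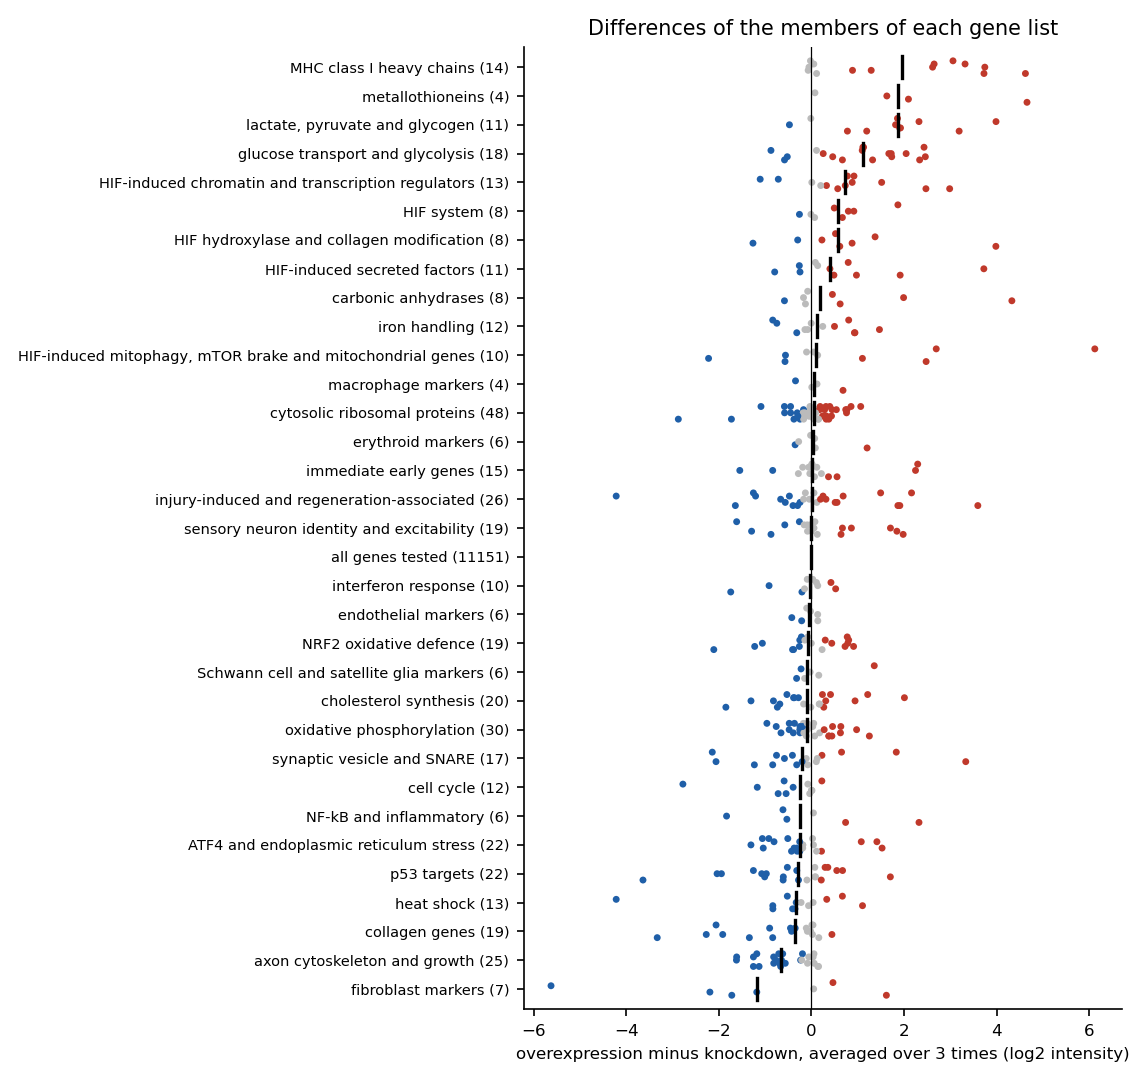
Overexpression minus knockdown, averaged over the 3 times, in log2 intensity (horizontal axis), with 1 point per tested gene and 1 row per list, and the number tested in brackets. Red points were called higher, blue points called lower and grey points did not pass, and the black bar is the median. Lists are ordered by median, from -1.18 for fibroblast markers to 1.95 for MHC class I heavy chains, and the row of all genes shows its median alone.

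Beyond the HIF lists, the 12 largest rises among genes without overlap held 3 members of those lists (Mgarp, Car12 and Pygl) and 9 others. The serotonin receptor gene Htr5b was 2931 to 3499 in overexpression and 19.0 to 46.7 in knockdown (5.09, SE 0.086). Prok2, a secreted peptide that signals in pain and circadian pathways, was 1868 to 2149.5 and below 16 on all 6 knockdown and 6 control arrays, at least 127-fold higher. The actin bundler Espn read 6321 to 7714 against 131 to 184, and the phosphoinositide-binding adaptor Plekha2 2467 to 2986 against 17.3 to 30.7. The others were Otop1, a proton channel (4.29), Rgcc, a cell cycle regulator (4.09), dermokine (Dmkn, 4.04), Mt1 and H2-Bl. Dimmer probes of some of these genes differed less: the 4 probes of Espn ran from 0.06 to 5.03 and the 3 of Dmkn from 0.03 to 4.04. In all 12 the control arrays were below every overexpression array, and in 6 of them control was below 16 throughout.

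Mt1, a metallothionein that binds zinc and copper, was at the highest value in the table, 40784.5, on 3 of 4 overexpression arrays, so its difference of 4.66 (SE 0.17) may be cut short. Knockdown arrays read 1192 to 2130.4 and control arrays 2141 to 9632. Of the 4 metallothionein genes, a family chosen after values were seen, Mt2 (2.10) and the brain form Mt3 (1.63) were also higher, and Mt4 did not pass (0.07). H2-Bl, a class I histocompatibility gene, was 1383 to 1538 in overexpression and below 16 on all 6 knockdown and 6 control arrays, at least 92.3-fold higher. Of 14 class I heavy chain genes tested, also chosen after values were seen, 9 were higher and 0 lower. They included H2-T23 (at least 56.7-fold) and H2-K1 (2.62, SE 0.097). These genes are close copies of one another, so 1 transcript may be read by several probes and the count is uncertain.

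The 12 largest falls were led by Thy1, a surface glycoprotein of neurons that fibroblasts also carry. It read 111 uninjured, 176 and 129 at 3 h and 283 at 12 h in overexpression, against 9942 to 13569 in knockdown (median 11898). The difference was -5.63 (SE 0.087, limma adjusted p = 2.64e-21), and control lay between, at 2076 to 4255. The matrix protease Mmp2 was 85.4 to 189.7 against 5164 to 7335 (-4.99, SE 0.11). Hspb1, a small heat shock protein of injured neurons, was 34.0 to 64.3 against 1643 to 2406 (-4.22, SE 0.082), with control at 11.7 to 26.7. Dkk3, a secreted relative of Wnt inhibitors, was 759.8 to 1069.7 in knockdown and below 16 on all 4 overexpression arrays, at least 58.4-fold lower.

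The rest were Aard (-4.14), the peroxisomal thiolase Acaa1b (-3.66), the receptor phosphatase Ptprv (-3.64), the receptor tyrosine kinase Axl (-3.51), Col4a1, the protease inhibitor Serpine2 (-3.24), the axon guidance ligand Ntng1 (-3.21) and Slc10a4l (-3.18). Overexpression arrays were above 16 on 1 of 4 arrays for Col4a1, Ntng1 and Slc10a4l. In all 12 the control arrays were below every knockdown array, and in 5 control was above every overexpression array. Across the whole array, 130 genes were above 16 on all 4 overexpression arrays and none of the 6 knockdown arrays, and 242 showed the reverse.

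**Figure D3:**
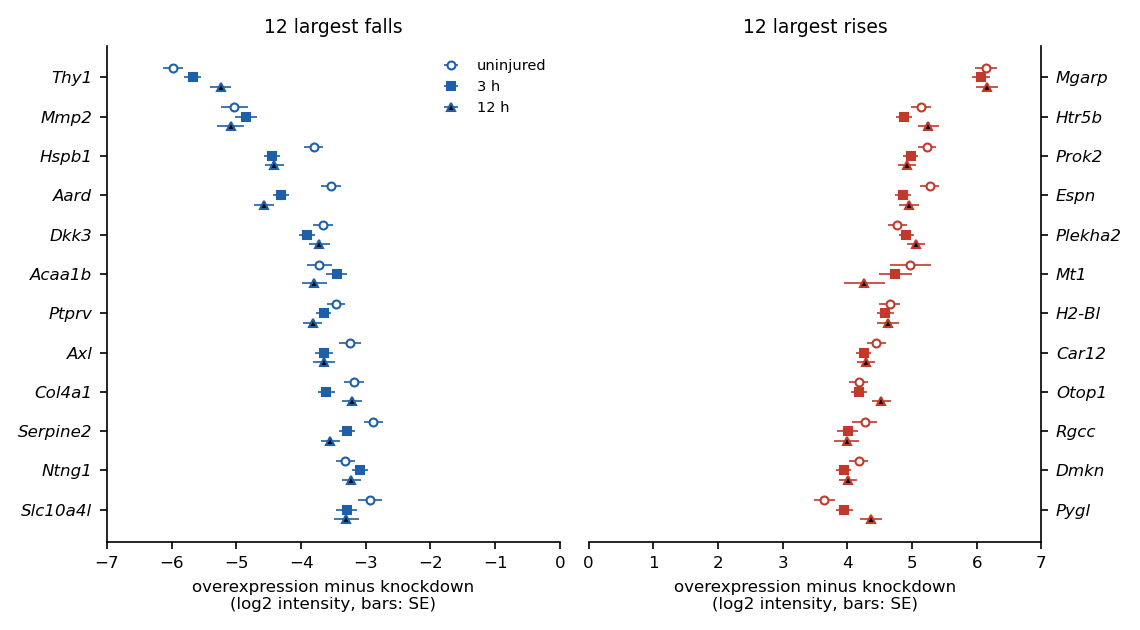
Overexpression minus knockdown at each time, in log2 intensity with its SE as bars, for the 12 largest falls (left) and the 12 largest rises (right). Circles are uninjured, squares 3 h and triangles 12 h. The rises run from 3.64 to 6.16 at single times and the falls from -5.98 to -2.88. These genes were chosen among those without overlap between the groups, which fixes the same sign at every time.

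Of genes of the axonal cytoskeleton and growth, all 25 listed were tested, and 17 were lower with overexpression, 0 were higher and 8 did not pass (limma; median -0.649). Stmn2, which destabilises microtubules in growth cones, read 7309 uninjured, 9833 and 8823 at 3 h and 9852 at 12 h in overexpression, against 24659.7 to 29174 in knockdown with a median of 27587 (-1.62, SE 0.083, limma adjusted p = 3.44e-13). Control arrays, at 23125 to 29174, overlapped knockdown and lay above overexpression. Doublecortin (Dcx) was 852 to 950.3 against 2537 to 3217 (-1.62, SE 0.077), with control at 2898 to 4021. The microtubule-associated Map1b was lower by 1.25 and the collapsin response protein Dpysl5 by 1.26 on the log2 scale. Map2 was lower by 1.18 on the probe used, but 2 of its 3 probes had the other sign, 1 of them past the threshold. The kinesin motor Kif5c was lower by 0.82, with knockdown (8277 to 9109) above control (5833 to 6525). Gap43, a growth cone protein, was lower by 0.57 (4093 to 5711 against 6321 to 8404). Tubb3 (0.05), Tubb2b (0.04) and Mapt (0.14, with 1 of its 4 probes of the other sign and called) did not pass.

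Of 19 tested genes of sensory neuron identity and excitability (27 listed) 6 (31.6%) were higher, 5 (26.3%) were lower and 8 did not pass (median -0.00304), shares near the 28.8% and 34.0% of all genes. Calca, which encodes the pain-fibre peptide CGRP, read 12835 uninjured, 14149.8 and 14519 at 3 h and 11775 at 12 h, against 3392 to 3769.7 in knockdown with a median of 3514 (1.85, SE 0.073, limma adjusted p = 5.03e-15). Control was 13569 to 16996, so knockdown was the group that stood apart, and the 3 probes of the gene differed by 0.68 to 2.40. Calcb rose by 1.71 (SE 0.096), and Tac1, the substance P gene, by 1.98 (SE 0.088). The ATP receptor P2rx3 was higher by 0.86 and Scn10a, a sodium channel of nociceptors, by 0.67. Lower were Ntrk3, the receptor of proprioceptive neurons, at 23.6 to 35.3 against 136 to 234 (-1.29, SE 0.096), and the sensory neuron actin regulator Avil (-0.88, SE 0.075). The identity factors Isl1 (-0.09) and Pou4f1 (-0.16) and peripherin (Prph, 0.07) did not pass.

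**Figure D4:**
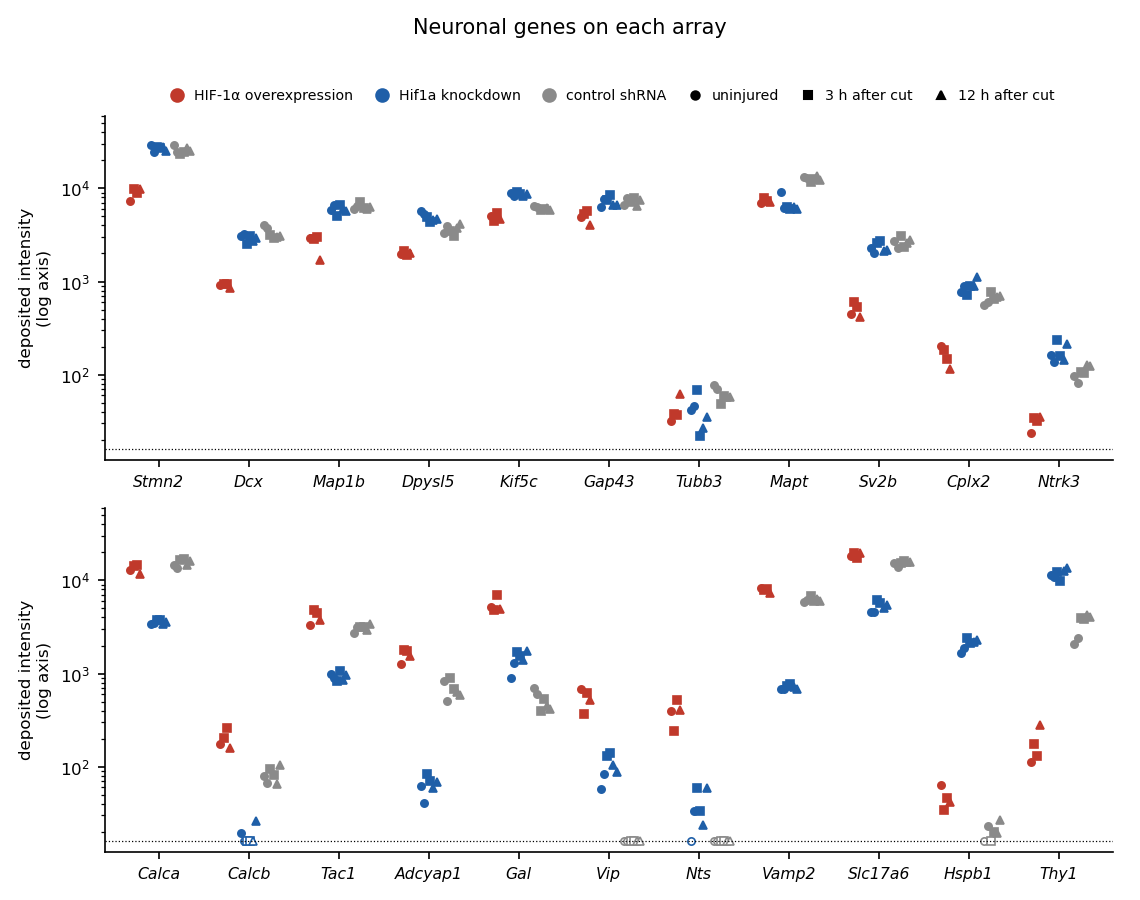
Deposited intensity on a log axis for 22 genes listed for neurons or injury, 1 point per array, with colours, shapes and the dotted line at 16 as in the plot of HIF genes by array. In the upper panel overexpression lies lowest for Stmn2, Dcx and Sv2b. In the lower panel knockdown lies lowest for Calca and Vamp2, with control and overexpression both above it.

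Vesicle genes split as well, with 4 of 17 tested (23.5%, 22 listed) higher and 9 (52.9%) lower, beside 28.8% and 34.0% of all genes. Vamp2, the main vesicle SNARE, was 7277 to 8200.1 in overexpression and 677 to 780.2 in knockdown (3.34, SE 0.073), with control at 5877 to 6785. The glutamate transporter Slc17a6 rose by 1.83 (SE 0.076). In contrast Sv2b was 413 to 599 against 2039 to 2729 (-2.15, SE 0.088), and the release regulator Cplx2 was -2.06 (SE 0.092). For these 2 genes control overlapped knockdown, at 2286 to 3097 for Sv2b and 561 to 781 for Cplx2. Vamp1, a relative of Vamp2, was lower by 1.24 on the log2 scale. Of its 4 probes 2 had the other sign, and neither of these was called.

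Among 26 tested genes of the injury response and of regeneration (30 listed), 11 (42.3%) were higher and 10 (38.5%) were lower (median 0.00368). Over all genes these shares were 28.8% and 34.0%. Adcyap1, which encodes PACAP, read 1254 uninjured, 1779 and 1746 at 3 h and 1534 at 12 h, against 40.5 to 84.2 in knockdown with a median of 64.9 (3.60, SE 0.11). Galanin (Gal) rose by 1.87 (SE 0.12), Vip by 1.91 (SE 0.11) and neurotensin (Nts) by 2.16 (SE 0.14). The cholecystokinin receptor Cckbr was below 16 on all 6 knockdown and 6 control arrays and at least 6.81-fold higher. Besides Hspb1, the laminin receptor Itga7 was lower, at 35.3 to 77.8 against 288 to 331 (-1.65, SE 0.081), as were Gadd45a (-1.26) and Flrt3 (-1.21). Atf3, the injury-induced transcription factor, differed by 0.55.

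Of 15 tested immediate early genes (21 listed) 4 (26.7%) were higher, 2 (13.3%) were lower and 9 did not pass. Over all genes 28.8% were higher and 34.0% lower. Junb, an AP-1 subunit, was 370.2 to 448 against 27.3 to 44.8 (2.30, SE 0.084), and Ier3 was higher by 2.25 (SE 0.092). Klf6 was lower, at 1608 to 2135 against 4822 to 6172 (-1.55, SE 0.075), and Egr1 was -0.84 (SE 0.11) with groups that overlapped. Of 22 tested p53 targets (25 listed) 6 (27.3%) were higher and 12 (54.5%) were lower (median -0.299). Ptprv read 80.8 to 129 against 1975 to 2413, the death receptor Fas 26.7 to 45.0 against 319.6 to 389, and Pidd1, a death domain adaptor, was -1.95 (SE 0.082). Their control arrays were at 53.9 to 65.1 for Ptprv and 3.61 to 31.9 for Fas, below knockdown in both. Zmat3, an RNA-binding p53 target, was higher by 1.70 (SE 0.086), and Cdkn1a (0.07) and Bax (0.07) did not pass.

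Of 22 genes of the ATF4 and unfolded protein response 4 (18.2%) were higher and 12 (54.5%) lower, beside 28.8% and 34.0% of all genes. Ddit3 (CHOP) was higher by 1.53 and the folding enzyme Pdia4 by 1.41, whereas Nupr1 was -1.31 (SE 0.084) and the cystine transporter Slc7a11 -1.06. Of 13 heat shock genes 3 (23.1%) were higher and 7 (53.8%) lower, and without Hspb1 they ran from -0.84 for Hspe1 to 1.10 for Hspa1a. Of 19 genes of oxidative defence 7 (36.8%) were higher and 8 (42.1%) lower. Gpx3, the extracellular glutathione peroxidase, was at 459 to 764 against 2294 to 3229 (-2.11, SE 0.093), and its control mean was 291. Of 30 respiratory chain genes 9 (30%) were higher and 12 (40%) lower, shares near those of all genes. Among the 30, 29 lay between -0.96 for Cox7a2 and 0.98 for Ndufv1. The complex II subunit Sdhc was higher by 1.25 (SE 0.075), with control at 4516 to 4976, overexpression at 3913 to 4491 and knockdown below both at 1463 to 2024. Of 20 cholesterol genes 7 (35%) were higher and 9 (45%) lower, from Stard4, a sterol carrier (2.01), to Hsd17b7, a synthesis enzyme (-1.85).

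Of 12 tested cell cycle genes (20 listed) 1 (8.33%) was higher and 6 (50%) were lower, beside 28.8% and 34.0% of all genes. Ccnd2, a D-type cyclin, was 271 to 331 against 2025 to 2645 (-2.78, SE 0.12). Ccnd1 was -1.17 (SE 0.090) with 3 of 4 overexpression arrays above 16. Control means were 205 for Ccnd2 and 19.5 for Ccnd1, beside 294.6 and 17.9 in overexpression. Knockdown means were 2432 and 127.7, so for these genes knockdown was the group that stood apart. Of 6 inflammatory genes 2 were higher and 3 lower: complement C3 was 2.32 (SE 0.077) and the adhesion molecule Icam1 -1.84 (SE 0.085). Their control means, 13.3 for C3 and 22.1 for Icam1, were below the means of both other groups. Of 10 interferon response genes 2 (20%) were higher and 3 (30%) lower, and the immunity GTPase Irgm1 was -1.75 (SE 0.10). Among the lower, Bst2 (-0.21) overlapped between the groups and lost its call in 16 of 27 settings. Among the higher, Ifit3 (0.42) lost its call with the mean of its probes (0.18). Of 48 cytosolic ribosomal protein genes, a family chosen after values were seen, 17 (35.4%) were higher and 12 (25%) lower. Rps15a read 79.3 to 141 against 978 to 1424 (-2.88, SE 0.082), while Rps7 was higher by 1.06. Ribosomal protein genes have many near-identical copies in the genome, so single probes are uncertain.

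Markers of other cell types moved with the comparison in part. Of 7 fibroblast markers tested (13 listed) 4 (57.1%) were lower and 2 (28.6%) higher, beside 34.0% and 28.8% of all genes. Beside Thy1, Pdgfra was 138 to 264 in knockdown and below 16 on all 4 overexpression arrays, at least 12.6-fold lower, and the matrix proteoglycan Dcn was -1.72 (SE 0.13). Vimentin (Vim) was 2980.0 to 3396 against 6381 to 8242. The summed intensity of 11 fibroblast markers, without Thy1, was 3304 to 3683 in overexpression, 6892 to 8617 in knockdown and 4314 to 4839 in control, with Col1a1, Col3a1, Lum and Postn never above 16. Vim makes up most of that sum. The sums go with the falls of Mmp2, the collagens and Thy1, and their part in them was not tested. Twist2, a transcription factor of mesenchyme, was higher by 1.62 (SE 0.080), with means of 209.6 in overexpression and 20.4 in knockdown and no overlap. Its relative Twist1 was below 16 on all 6 knockdown arrays and at least 1.89-fold higher. The sums of 12 Schwann cell and satellite glia markers overlapped, at 9055 to 10338 and 8558 to 10323, with control at 18150 to 21209. In that list Pmp22 was higher by 1.36 (SE 0.14) and S100b was lower by 0.32 on the log2 scale. The S100b call ended without the uninjured overexpression array (limma adjusted p = 0.0522). Of 6 endothelial markers 0 were higher and 2 lower by limma, and their sums overlapped (2289 to 3056 and 2682 to 3539). The 2 were Esam (-0.43) and Egfl7 (-0.21), and Egfl7 lost its call in 6 settings, among them those without the uninjured (-0.13) or the 12 h (-0.13) overexpression array. Of 4 macrophage markers 1 was higher and 1 lower, with summed levels of 208 to 313 and 130 to 186. The lower one, Lyz2, was near background in both groups and was not called with values floored at 16 (limma adjusted p = 1). Of 6 erythroid markers 1 was higher and 1 lower, and the sums overlapped. The erythropoietin receptor Epor was higher by 1.20 (SE 0.083), above 16 on 1 of 6 knockdown arrays.

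The comparison was also taken at each time after the cut. Uninjured, 20.6% of genes were higher and 24.9% lower. At 3 h these shares were 23.4% and 27.2%, and at 12 h 20.5% and 22.7%. The times share no arrays, and across genes, which are not independent replicates, their differences correlated at r = 0.936 to 0.954. Of the 3151 genes called higher at 1 or more times 1751 were higher at all 3, as were 1974 of the 3658 called lower at 1 or more, and 10 genes were called in opposite directions at 2 times. limma's F test for a difference between the times called 0 genes (0%), while 814 genes (7.30%) had an unadjusted p under 0.05. With values floored at 16 in place of the background model, 57 genes were called.

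The smallest p for a change with time belonged to Fos, the immediate early gene. In overexpression Fos read 421 uninjured, 295 and 361 at 3 h and 215 at 12 h, and in knockdown 171 to 537 (median 271), with groups that overlapped. Its difference was 0.87 uninjured, -0.43 at 3 h and -0.25 at 12 h (limma F test, adjusted p = 0.346). Kcnk2, a potassium channel, was -1.66, -0.53 and -1.08, and the circadian repressor Ciart 2.72, 1.80 and 1.90. The others were Slc9b2, Ndufaf3, Aard, Pcdhb3 and Tnfrsf10b, and 0 of the 8 passed this test. Uninjured and 12 h overexpression have 1 array each, so 2 of the 3 differences each rest on a single overexpression array.

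**Figure D5:**
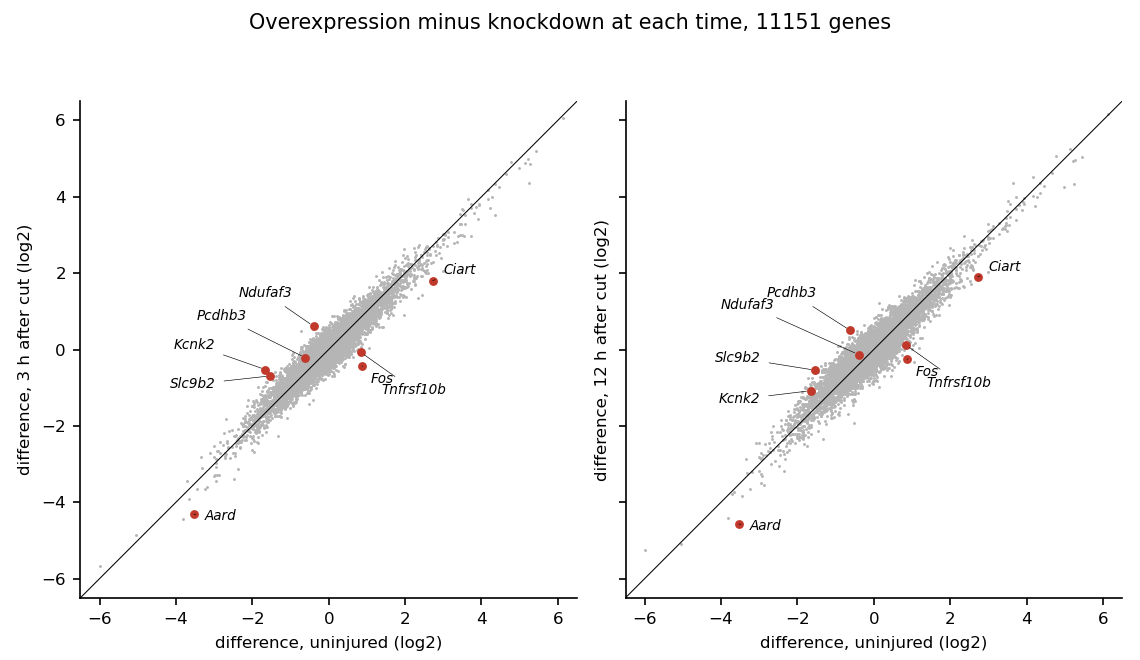
Overexpression minus knockdown in log2 intensity, uninjured (horizontal axes) against 3 h (left) and 12 h (right), 1 grey point per gene for 11151 genes. Red points are the 8 genes with the smallest p for a difference between times, and the line marks equal values. Points lie along the line, with r between 0.936 and 0.949, and Fos, at 0.87 uninjured, lies below 0 at 3 h and 12 h.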

How the data were processed

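The authors deposited intensity values for 25697 probes in a column per sample, and the values themselves show background subtraction (27.2% are below 0, in a range of -21.7 to 40784.5) and quantile normalization (every array has the same maximum). GenomeStudio is named per the submitters' processing notes, with no version. Of a second deposited file, 32 columns matched no sample label, and only its gene symbols were used. Symbols were updated with RefSeq genes of GRCm38.p6 (20733 were current, 3872 were updated from a synonym and 1092 were kept as given).

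In limma 3.58.1 (R 4.3.3), a normexp background correction with offset 50 came first, then quantile normalization, then log2. Probes above 16 on at least 2 of 16 arrays were kept (15086), and each of 11151 genes was represented by its probe of highest mean. The limit of 16 compares with a background SD of 6.42 estimated from values below 0. All 16 arrays entered 1 fit of 9 group means with 7 residual and 13.2 prior degrees of freedom. Overexpression minus knockdown was taken at each time and averaged with equal weights, and a moderated F test compared the times. Calls use Benjamini-Hochberg adjusted p under 0.05 over all genes. The fit was tested on simulated data. Signal over background and the number of arrays limit the precision.

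The text names the HIF system, the 12 largest rises and falls without overlap among called genes with a gene name, up to 6 members of each list with the smallest p, and the 8 smallest p for a change with time. Promoters are those of the 6 members of the HIF lists with the largest rise that were in the RefSeq table and not on chromosome 18. Other genes, and the MHC, collagen, metallothionein and ribosomal families, were chosen after their values were seen. All members and lists were chosen with earlier results of these data known. Alternatives changed the fit, offset, background step, normalization, filter, probe rule, moderation, replicate block and the arrays included.

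Same-numbered replicates were checked for shared deviations. Over 21 pairs of groups r was -0.12 to 0.244, with 7 pairs over 0.1. The numbers were not taken to pair samples, although so few arrays in a group cannot exclude shared cultures. Some genes that the naming rule selects are not reported here.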

Additional observations from a re-analysis of the deposited data

How the results depend on the processing

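Under 11 alternative settings the averaged comparison called 2945 to 3370 genes higher and 3434 to 3779 lower, and leaving out each of the 16 arrays in turn it called 2980 to 3236 and 3432 to 3803. The count of genes whose difference changed with time went from 0 to 57 with values floored at 16, and the cause was not tested. With the replicate block 6951 genes were called in place of 6997. Same-numbered arrays of overexpression and knockdown at 3 h had deviations that correlated at -0.0351. Other pairs of groups reached 0.244, and so few arrays cannot decide whether a number marks a shared culture. Of 234 named genes 198 kept direction and side of the threshold under every setting that gave them a value, out of 27. Of 64 counts of list members called, 44 stayed within 1.5 times under every setting. Slc16a3 lost its call at an offset of 16 (0.07) and with probes above 16 on at least 8 arrays (0.04), a filter that the reported probe does not pass. Genes that changed sign had not been called in the reported fit, except Insig1, which was -0.82 there and 0.1942 with the mean of its probes, where 2 of its 3 probes have the other sign. The mean of probes also turned Mbp to -0.3612, and 28 genes called in the reported fit were called the other way. The additive model gave C1qb -0.004132, Fos -0.006898 and Pdk2 0.01118. Floored values gave Pecam1 0.1263, Mt4 -0.09188 and Pdk2 0.05413, cyclic loess gave Ngfr 0.05971, and the block gave Hbb-bh1 0.02546 and Kdm5c -0.006346. Leaving out 1 array gave ranges across 0 for Nfkbia (-0.006783 to 0.1093), Kdm5c (-0.03286 to 0.05268), Pdk2 (-0.08607 to 0.09165), Hif1a (-0.03157 to 0.1453), Hif3a (-0.07855 to 0.05481), Dhh (-0.3669 to 0.01578), Tek (-0.1815 to 0.002522), Pecam1 (-0.08499 to 0.04344), Hbb-bh1 (-0.06971 to 0.02646), C1qb (-0.08526 to 0.06104), Tubb3 (-0.1189 to 0.1608), Ngfr (-0.1254 to 0.03822), Fos (-0.3402 to 0.2198), Pcdhb3 (-0.4148 to 0.144), Car2 (-0.2145 to 0.06409), Prph (-0.01359 to 0.2597), Mt4 (-0.01082 to 0.1603) and Ndufaf3 (-0.02261 to 0.238). The uninjured and 12 h differences could not be fitted without their only overexpression array. Signal over background limits genes near 16, for which an order of levels is not given.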
